A study of Mus musculus with 20 samples.

Results

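The regions described here were open in the stomach mesenchyme of mouse embryos, with and without the Polycomb gene Eed, and were not listed in the intestinal mesenchyme of either genotype. They were chosen by the presence of peaks, by merging the 4 lists of accessible regions (control stomach, control intestine, Eed KO stomach and Eed KO intestine, 1 bp of overlap) and keeping each merged region with a peak from both stomach lists and from neither intestinal list. Of 162113 merged regions, 6296 (3.88%) met this rule. Since the regions were selected on these peaks, their presence is a description and was not tested. A missing peak means that no peak was called, not that the chromatin was closed.

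All samples were GFP+ cells sorted from embryos at E13.5, after the stomach and the intestine had been dissected apart. The labels give the strain as C57BL/6, while the study's methods give mixed backgrounds for the Eedfl and Rosa26mTmG lines. Control cells were Bapx1-cre;Rosa26mTmG and Eed KO cells were Eedfl/fl;Bapx1-cre;Rosa26mTmG, so both genotypes carried the Cre and the reporter. Cre was driven by Bapx1, a gene of the gut mesenchyme, and GFP marks cells that expressed Cre and their descendants, so other cell types keep their Eed. Accessibility was measured by ATAC-seq, with 1 peak list made from the pooled replicates of each of the 4 conditions, and RNA by poly(A) RNA-seq, with 2 libraries for each.

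EED is a core subunit of Polycomb Repressive Complex 2 (PRC2), which places the repressive mark H3K27me3 on histones at silenced developmental genes. ATAC-seq cuts DNA where nucleosomes leave it exposed, and exposed sites away from gene starts are often enhancers, short stretches of DNA that bind transcription factors and act on genes nearby. In the gut, the mesenchyme under the epithelium carries regional programmes of homeodomain and other transcription factors, which differ between the stomach and the intestine and instruct the overlying epithelium.

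The 27827 regions with a control stomach peak and no control intestine peak had mixed fates in the Eed KO lists. Of these, 6296 (22.6%) had a peak in the Eed KO stomach alone and are the regions described here, 7343 (26.4%) had a peak in both Eed KO organs, 2328 (8.37%) in the Eed KO intestine alone, and 11860 (42.6%) in neither. The same sorting of 16023 regions with a control intestine peak and no control stomach peak gave 4383 (27.4%) that kept a peak in the Eed KO intestine alone and 6367 (39.7%) with a peak in neither Eed KO list. These 4383 intestinal regions, the mirror of the stomach set, served as the closest set for comparison, beside the 74635 regions present in all 4 lists and the 11860 present in the control stomach list alone. Stomach-restricted kept regions therefore made up a smaller share of their starting set than the intestinal mirror did, in lists without replicates that allow no test of that difference.

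The 6296 regions were modest peaks. Fold enrichment over the local background of the peak caller had a median of 2.92 in the control stomach, with quartiles of 2.62 and 3.4 and a maximum of 9.71, and a median of 2.94 in the Eed KO stomach, with quartiles of 2.66 and 3.39 and a maximum of 11.2. Regions in all 4 lists were stronger, with medians of 4.44 and 4.42 in the control and Eed KO stomach. The kept regions were also narrower, with a median width of 480 bp against 1034 bp for regions in all lists, 424 bp for the intestinal mirror and 230 bp for regions in the control stomach list alone.

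Enrichment differed little between the 2 stomach lists at most of these sites, a likeness that the rule itself favours. The rule kept only regions with a peak in both stomach lists. It left out 11860 regions present in the control stomach list alone and 11971 in the Eed KO stomach list alone. The ratio of Eed KO to control stomach had a median of 1.01, its 5th and 95th percentiles were 0.709 and 1.39, and 3322 of 6296 regions (52.8%) were higher in the Eed KO. Only 176 regions exceeded 1.5 in this ratio and 187 lay below its inverse. Across these regions the fold enrichments of the 2 lists correlated with a Spearman rho of 0.438 (Pearson r = 0.486 on the log2 scale), against a rho of 0.841 across the regions of all 4 lists, which cover a wider range of strengths. The points are regions of 1 pooled list per genotype, so these are descriptions and no replicate error could be given.

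**Figure D1:**
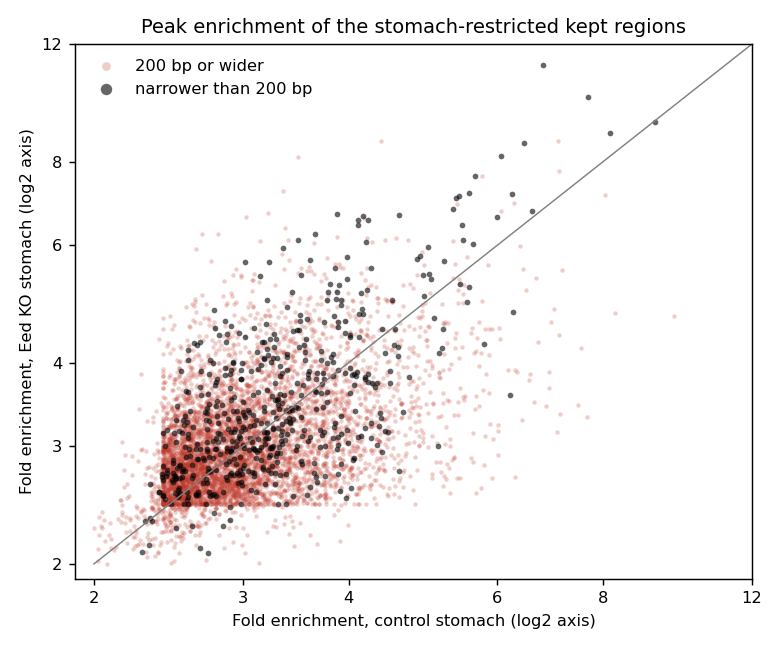
Fold enrichment of the 6296 stomach-restricted kept regions in the control stomach (x axis, log2) and the Eed KO stomach (y axis, log2), with regions narrower than 200 bp in black and the others in red. Points spread on both sides of the line of equal values, and many of the strongest are narrow.

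The strongest members were of a pair of kinds. Of the 10 with the largest lower value of the 2 enrichments, 6 were narrower than 200 bp, although only 536 of all members (8.51%) were. The strongest of all, on chromosome 12 at 54714167 to 54714358, was 192 bp wide, lay within 1000 bp of an annotated gene start, and had enrichments of 9.23 in the control and 9.18 in the Eed KO stomach. A 133 bp member in an intron beside Sp1, which encodes a general transcription factor, had 7.67 and 9.99, and a 170 bp member in an intron near Caps2 had 6.8 and 11.2. Among the broad ones, an intergenic member of 799 bp whose nearest tested gene was Gata3, 285656 bp away, had 8.03 and 7.13, and one of 835 bp in an intron, 69791 bp from the start of Angpt2 (an angiopoietin, a ligand of endothelial receptors), had 7.09 and 7.74. By the -log10 q of the weaker stomach peak, 3288 members (52.2%) were under 2, the value of the q cut-off stated in the methods, 2635 (41.9%) from 2 to 5, 325 (5.16%) from 5 to 10 and 48 (0.762%) at 10 or more. The share narrower than 200 bp was 4.71% in the weakest of these tiers, 10.8% and 22.5% in the next ones and 47.9% in the strongest, where the median width was 212 bp. The part of this narrow shape in the results below was not tested.

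Membership moved with the peak strength required. The weakest members by -log10 q were introns near Gpr153, Per2 and Cradd, with 1.02, 1.02 and 1.03 in the control stomach list. Regions that missed the rule by the weakest intestinal peak lay near Caskin2 (-log10 q of 1.01 in the control intestine), Foxn3 (1.04 in the Eed KO intestine) and Slc2a10 (1.04 in the control intestine). Merging the peaks whose -log10 q reached 2 gave 4888 such regions, and 3008 (47.8%) of the reported members were still among them. With peaks that reached 5, 2524 regions met the rule, of which 2151 (85.2%) were not among the 6296, and 373 (5.92%) of the reported members remained.

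Sequences of 7 members are shown because they lie near the stomach genes described below or are among the strongest, with up to 300 bases from the centre of each, read from the plus strand of GRCm38 (mm10), 5′ to 3′. Capitals mark 4 strings bound by homeodomain proteins, the class of transcription factor to which the PITX, HOX, EMX and NKX proteins belong, on either strand. The strings are TAATCC (PITX type), the homeodomain core TAATTG, the palindrome TAATTA and the PBX with HOX string TGATTNAT, and they may overlap each other. The strong intergenic member whose nearest tested gene was Gata3 is shown at chr2:9604229-9604528. The member 1174 bp upstream of Mecom is at chr3:30549076-30549290 and the one 2715 bp upstream of Six2 at chr17:85690840-85691139. The one 17257 bp downstream of the start of Pitx1 is at chr13:55818786-55819085 and the one 19819 bp upstream of Emx2 at chr19:59438404-59438703. An intronic one of Rspo2 is at chr15:43159912-43160098 and the narrow one in the intron beside Sp1 at chr15:102421557-102421689.
Gata3 desert: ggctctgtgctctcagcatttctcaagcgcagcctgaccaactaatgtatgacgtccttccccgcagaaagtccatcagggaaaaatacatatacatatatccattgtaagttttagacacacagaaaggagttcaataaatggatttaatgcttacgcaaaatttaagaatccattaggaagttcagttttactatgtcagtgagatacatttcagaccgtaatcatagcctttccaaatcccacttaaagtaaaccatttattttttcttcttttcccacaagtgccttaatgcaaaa
Mecom: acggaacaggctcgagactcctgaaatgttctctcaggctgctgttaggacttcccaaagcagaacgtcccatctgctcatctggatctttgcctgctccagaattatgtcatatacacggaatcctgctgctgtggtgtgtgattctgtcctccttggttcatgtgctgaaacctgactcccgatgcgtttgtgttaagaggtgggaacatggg
Six2: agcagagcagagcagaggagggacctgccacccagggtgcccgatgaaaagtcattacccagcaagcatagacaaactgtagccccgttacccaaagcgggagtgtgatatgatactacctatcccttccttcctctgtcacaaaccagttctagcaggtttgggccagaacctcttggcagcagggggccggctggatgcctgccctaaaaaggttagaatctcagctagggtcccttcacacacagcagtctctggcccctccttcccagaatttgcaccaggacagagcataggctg
Pitx1: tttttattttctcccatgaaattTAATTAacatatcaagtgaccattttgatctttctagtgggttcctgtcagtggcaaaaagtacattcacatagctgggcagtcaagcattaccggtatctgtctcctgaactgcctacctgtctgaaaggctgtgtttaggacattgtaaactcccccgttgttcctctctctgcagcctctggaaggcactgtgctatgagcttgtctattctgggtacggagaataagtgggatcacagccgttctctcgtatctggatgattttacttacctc
Emx2: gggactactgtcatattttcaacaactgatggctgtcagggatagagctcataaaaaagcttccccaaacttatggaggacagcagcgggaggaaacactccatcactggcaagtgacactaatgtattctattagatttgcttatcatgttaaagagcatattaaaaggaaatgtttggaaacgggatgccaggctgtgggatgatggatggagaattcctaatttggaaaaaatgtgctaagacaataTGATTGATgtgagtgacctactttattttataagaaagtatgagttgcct
Rspo2 intron: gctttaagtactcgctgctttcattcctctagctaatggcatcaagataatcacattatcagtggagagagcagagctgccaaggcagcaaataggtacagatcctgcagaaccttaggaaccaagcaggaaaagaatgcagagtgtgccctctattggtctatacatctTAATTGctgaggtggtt
Sp1 intron: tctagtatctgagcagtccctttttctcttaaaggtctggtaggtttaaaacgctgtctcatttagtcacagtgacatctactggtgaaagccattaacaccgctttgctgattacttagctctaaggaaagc

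Only the members near Pitx1, Emx2 and Rspo2 held any of the 4 strings in the bases shown, with 1 match each. The absence of a match says only that these letters are not in the window. Of the members considered for printing, 35 held at least 3 of the 4 strings in their central 300 bases, and the 4 with the largest lower enrichment are shown with the same capitals. Their nearest tested genes were Sema6d at 41182 bp (chr2:124131002-124131301), Gm6768 at 57822 bp (chr12:119318607-119318906), Spry2 at 362972 bp (chr14:106259642-106259941) and Drosha at 50607 bp (chr15:12875273-12875572), with control stomach enrichments of 4.16, 3.72, 3.64 and 3.64.
Sema6d: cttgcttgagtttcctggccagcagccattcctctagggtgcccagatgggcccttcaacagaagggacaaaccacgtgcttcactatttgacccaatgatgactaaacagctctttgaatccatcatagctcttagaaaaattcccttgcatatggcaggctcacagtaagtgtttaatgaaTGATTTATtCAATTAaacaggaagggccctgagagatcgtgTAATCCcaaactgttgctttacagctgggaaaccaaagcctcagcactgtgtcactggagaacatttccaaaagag
Gm6768: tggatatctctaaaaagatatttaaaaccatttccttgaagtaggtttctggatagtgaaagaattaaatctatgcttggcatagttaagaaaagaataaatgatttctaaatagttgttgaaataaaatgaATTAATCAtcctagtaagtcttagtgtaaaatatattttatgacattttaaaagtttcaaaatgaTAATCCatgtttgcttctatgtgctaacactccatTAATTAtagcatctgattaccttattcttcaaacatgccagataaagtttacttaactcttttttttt
Spry2: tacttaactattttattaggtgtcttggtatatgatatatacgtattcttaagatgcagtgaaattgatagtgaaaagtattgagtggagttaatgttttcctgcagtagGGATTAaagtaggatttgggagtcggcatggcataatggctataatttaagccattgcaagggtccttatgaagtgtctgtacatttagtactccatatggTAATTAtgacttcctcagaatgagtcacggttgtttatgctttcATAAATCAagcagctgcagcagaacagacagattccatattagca
Drosha: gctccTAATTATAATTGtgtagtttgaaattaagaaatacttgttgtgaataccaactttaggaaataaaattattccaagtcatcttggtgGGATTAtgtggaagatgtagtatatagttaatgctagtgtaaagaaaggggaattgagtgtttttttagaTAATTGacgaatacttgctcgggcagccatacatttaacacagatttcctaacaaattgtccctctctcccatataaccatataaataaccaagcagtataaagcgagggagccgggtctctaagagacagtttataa

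The 4 homeodomain strings shown above, out of 18 strings searched, were more frequent in the stomach-restricted kept regions than in the other sets, while other strings of homeodomain proteins had mixed orders. TAATCC was present in the central 300 bases of 856 of the 6296 members (13.6%), against 7.44% of the 4383 intestinal mirror regions, 8.16% of regions in all 4 lists and 11.9% of those in the control stomach list alone. TAATTG was present in 12.8% of members, against 8.1%, 7.81% and 9.9% of the same sets in that order. TAATTA was present in 8.37%, against 5.16%, 5.17% and 6.17%, and TGATTNAT in 8.07%, against 4.97%, 4.01% and 7.38%. Over all 162113 merged regions the shares were 8.97% for TAATCC, 8.6% for TAATTG, 5.72% for TAATTA and 4.76% for TGATTNAT. At least 1 of these 4 strings, grouped after their shares were seen, was in 2253 members (35.8%), against 22.5%, 22.0% and 30.3%.

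Of the other homeodomain strings, TGACAG (MEIS type) was in 23.9% of members, 26.1% of the mirror and 28.6% of regions in the control stomach list alone, and CACTTNA (NKX type) in 18.7%, 16.9% and 18.9%. TCAGGTT, the string searched for Six2 and its relatives, was in 4.91%, 4.18% and 4.65%. TTTATNG, a string of posterior HOX proteins, was in 15.8% of members and in 18.5% of the intestinal mirror, AGGTCA (NR2F type) in 14.2% and 17.8%, and GTAAACA (FOX type) in 4.89% and 6.68%. AGATAA, which GATA factors bind, was in 17.6% of members, 15.5% of the mirror and 14.0% of regions in the control stomach list alone. The CTCF motif was in 1.05% of members, 0.57% of the mirror and 3.02% of regions in all lists, and by strength in 0.487% of members with a -log10 q under 2, 1.18% from 2 to 5, 3.69% from 5 to 10 and 14.6% of the 48 at 10 or more. Members had a median GC content of 45.3%, against 47.3% in the mirror and 50.3% in regions of all lists. Within intronic and intergenic regions of 40 to 50% GC, TAATCC was in 14.3% of 3545 members, 8.29% of 2303 mirror regions and 10.7% of 27463 regions of all lists. There, AGATAA was in 17.5%, 17.6% and 17.2%, and CAGCTG, an E-box that helix-loop-helix factors bind, in 24.5%, 17.3% and 21.2%. Over the whole sets, CAGCTG was in 24.3% of members, 20.9% of the mirror, 22.7% of regions in all lists and 26.2% of those in the control stomach list alone. By strength, TAATCC was in 12.3% of members with a -log10 q under 2, 14.7% from 2 to 5, 18.5% from 5 to 10 and 8.33% of the 48 at 10 or more. These shares were not tested, since neighbouring regions of 1 pooled list are not replicates.

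**Figure D2:**
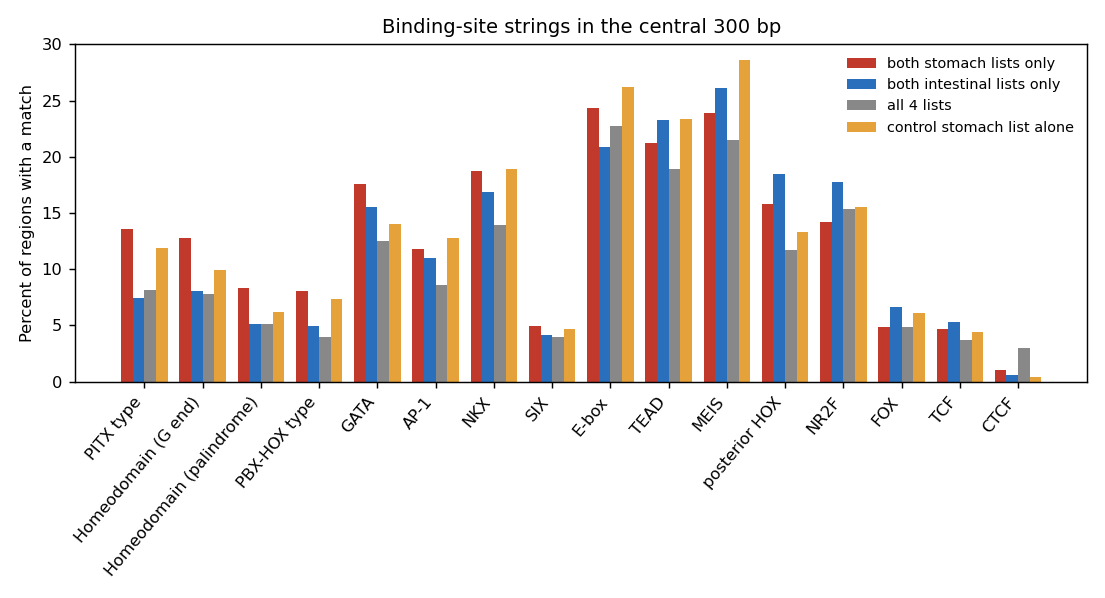
Percent of regions with each of 16 binding-site strings in the central 300 bp, for the stomach-restricted kept regions (red), the intestinal mirror (blue), regions in all 4 lists (grey) and regions in the control stomach list alone (orange). The 4 homeodomain strings at the left are most frequent in the red bars, and the posterior HOX, NR2F and FOX strings are more frequent in the blue bars than in the red.

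The kept regions lay away from gene starts. A gene start lay within 1000 bp of the centre of 127 members (2.02%), as for the intestinal mirror (2.17%) and regions in the control stomach list alone (1.87%), but 19.0% of the regions in all lists were at a start. Introns held 2862 members (45.5%), intergenic DNA 3095 (49.2%) and exons 212 (3.37%). The median distance from the centre to the nearest annotated start was 35.1 kb for members, 31.0 kb for the mirror and 16.6 kb for regions in all lists. Members lay on 20 chromosomes, with 115 on chromosome X. When members less than 25000 bp apart were joined, 5125 stood alone, 503 pairs, 47 triplets and 6 groups of 4 were formed, and none was larger.

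**Figure D3:**
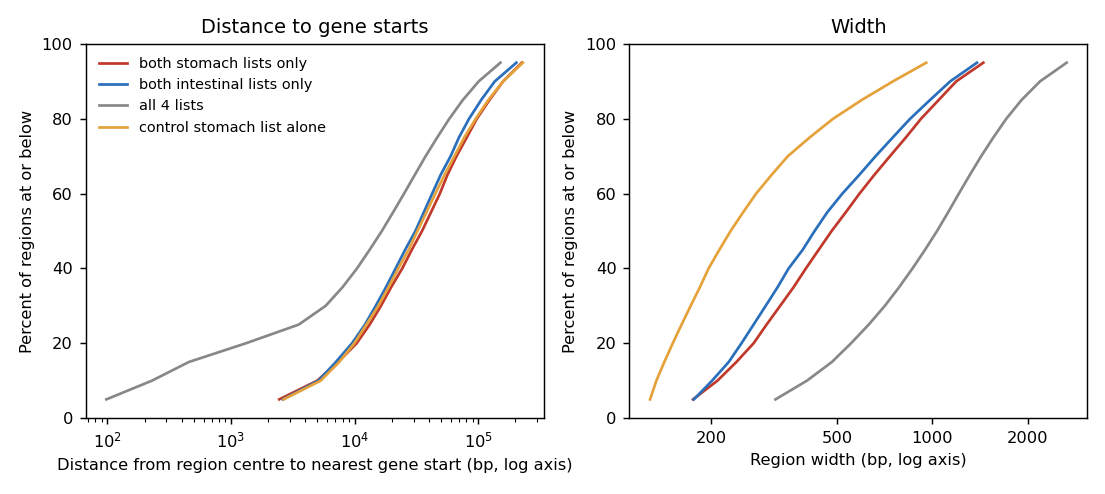
Percent of regions at or below a given distance from the nearest gene start (left, bp, log axis) and a given width (right, bp, log axis), at percentiles from 5 to 95. The 3 organ-restricted sets share nearly 1 distance curve, to the right of regions in all 4 lists (grey), and the stomach-restricted kept regions (red) are wider than those in the control stomach list alone (orange) and narrower than those in all lists.

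RNA libraries had between 30236159 and 39606157 counts on genes, and a count of 0 in a library allows up to 0.101 CPM (counts scaled to the library total) in the smallest, for counting error only. Eed itself was at 40.1 and 41.5 CPM in the control stomach and 11.5 and 7.4 in the Eed KO stomach, and at 38.1 and 40.1 in the control intestine, with 10.7 and 8.59 in the Eed KO intestine. Relative to the average gene it fell by 2.11 ± 0.21 (log2, SE) in the stomach (edgeR, adjusted p = 0.0017), a direction that turns with scaling by spike-ins (0.14). Defining genes of the gut mesenchyme were present in all 8 libraries, with a summed level of 8 markers between 11300 and 19300 CPM. Spike-in counts were lower in the Eed KO libraries, and scaling by them instead moves the median gene up by 2.39 (log2) in the Eed KO stomach and by 1.85 in the intestine, so every Eed KO difference below is relative to the average gene. In bulk samples, fewer cells of a type and less RNA per cell cannot be told apart.

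Genes beside these regions were more often higher in the stomach than genes at large. A neighbour gene was the tested gene with the nearest start within 50 kb of a region's centre, and 2273 members (36.1%) had one, giving 2001 neighbour genes of 16218 tested. A gene was called at an adjusted p under 0.05 in edgeR with a log2 difference over 1. In the controls, 129 of the 2001 (6.45%) were higher in the stomach and 44 (2.2%) were higher in the intestine. Over all tested genes, 3.39% were higher in the stomach and 1.68% higher in the intestine. The median difference was 0.036 (log2) over the neighbour genes and close to 0 over all genes. Beside the intestinal mirror, 59 of 1614 neighbour genes (3.66%) were higher in the control stomach and 48 (2.97%) in the control intestine, and beside regions of the control stomach list alone the first share was 5.66% of 3726. Of the genes with 2 or more members, 20 of 239 (8.37%) were higher in the control stomach and 2 were lower, and of the genes with 1 member, 109 of 1762 (6.19%) were higher and 42 lower. The share higher in the control stomach was 4.02% without replicate 2 of the control stomach, 2.89% without replicate 1 of the control intestine and 1.3% with scaling by spike-ins, where 1.81%, 1.28% and 0.524% of all tested genes were called. The shares of these sets were not tested against each other.

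The organ difference of these neighbour genes was present without Eed. In the Eed KO, 126 of 2001 (6.3%) were higher in the stomach and 37 (1.85%) higher in the intestine, against 2.94% and 1.46% over all tested genes. These libraries are separate from the control ones. Of the 129 genes higher in the control stomach, 85 (65.9%) also passed the threshold in the Eed KO, 127 had a difference of the same sign, and in 124 the 2 Eed KO stomach libraries were both above the 2 Eed KO intestine libraries. Over all tested genes, 298 of 549 (54.3%) higher in the control stomach passed again in the Eed KO. Among the 129, the median difference between organs was 2.18 (log2) in the controls, where the genes were chosen, and 1.51 in the Eed KO. Of 2001 neighbour genes, 15 had an organ difference that changed with genotype (adjusted p under 0.2). The difference of stomach over intestine was higher in the control for 9 and lower for 6. Over all tested genes, 0.191% and 0.271% were called in the same directions. The 6 include Nkx2-3 and Sgpp2, whose intestinal excess was larger in the control. The share higher in the Eed KO stomach was 4.12% without its replicate 1, 2.46% without its replicate 2, 3.69% without replicate 1 of the Eed KO intestine and 1.15% with scaling by spike-ins, where 1.75%, 1.19%, 1.54% and 0.586% of all tested genes were called. By number of members, 10 of 239 genes with 2 or more (4.18%) and 116 of 1762 genes with 1 (6.58%) were higher in the Eed KO stomach, the reverse of the order in the controls.

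Between genotypes, the shares of neighbour genes called lay nearer to those of all genes. In the stomach, 120 of 2001 (6%) were higher in the Eed KO and 24 (1.2%) lower, against 4.84% and 0.808% over all tested genes. In the intestine, 66 (3.3%) were higher and 5 (0.25%) lower, against 2.38% and 0.228%. The comparisons of the Eed KO stomach and of the organs in the controls share the control stomach libraries, so no overlap between them is given as a result. The share higher in the Eed KO stomach was 2.65% and 1.96% without replicate 1 or 2 of the control stomach and 2.41% without replicate 2 of the Eed KO stomach, where 1.95%, 1.68% and 1.88% of all tested genes were called. With scaling by spike-ins it was 94.9%, against 95.1% of all genes, and with an RUVg factor 1.55% against 1.59%.

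**Figure D4:**
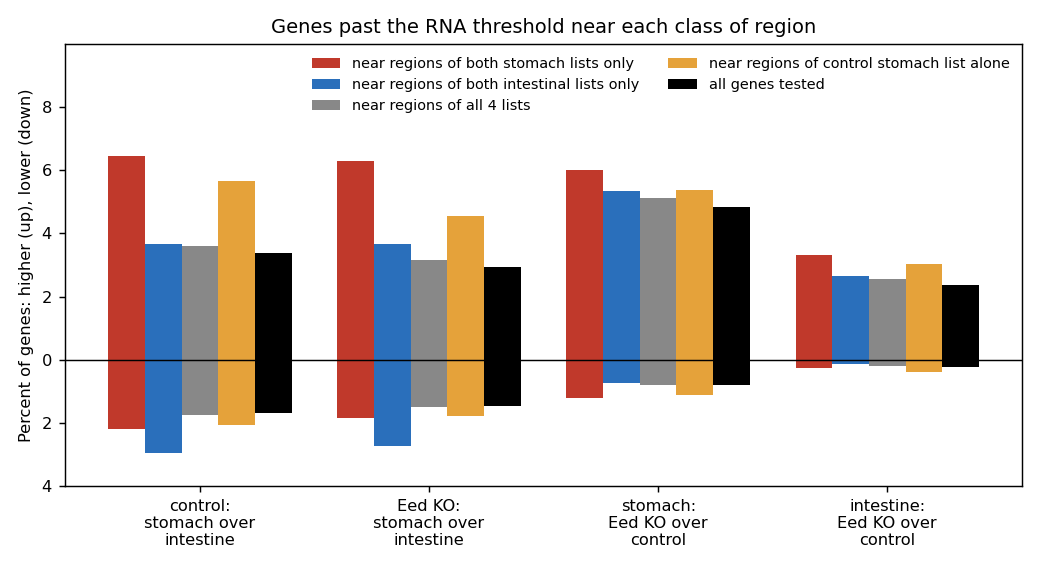
Percent of genes past the threshold (edgeR, adjusted p and size as for the calls above), higher above the line and lower below it, in 4 comparisons, for neighbour genes of 4 sets of regions and for all genes tested (black). Near the stomach-restricted kept regions (red) 6.45% and 6.3% were higher in the stomach with and without Eed, against 3.39% and 2.94% of all genes.

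Transcription factors of the stomach mesenchyme were among the neighbour genes with the largest excess in the control stomach. Mecom, a zinc finger regulator, has 1 member 1174 bp upstream of its annotated start, with enrichments of 7.16 and 5.51. Its RNA was at 38.8 and 52.5 CPM in the control stomach, 40.5 and 39.4 in the Eed KO stomach, against 0.197 and 0.202 in the control intestine, with 1.69 and 2.25 in the Eed KO intestine. Both stomach groups lay far above both intestinal groups, by 7.82 ± 0.27 (log2, SE, adjusted p = 2.5e-05) in the controls and 4.34 ± 0.21 (adjusted p = 0.00018) in the Eed KO. Within the intestine, Mecom was higher in the Eed KO by 3.28 ± 0.31 (adjusted p = 0.0032), and in the stomach it differed by -0.19 ± 0.17 (adjusted p = 0.55).

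Pitx1 and Six2, homeodomain factors of the stomach and the pyloric region, had the same order of groups. Pitx1 RNA was at 159 and 219 CPM in the control stomach, 152 and 166 in the Eed KO stomach, against 7.73 and 13.1 in the control intestine, with 24.4 and 24.2 in the Eed KO intestine, and its member had enrichments of 2.57 and 4.84. Six2 was at 197 and 149 CPM, 112 and 118, 5.76 and 13.1, and 29.5 and 26.3 in the same groups, and its member 2715 bp upstream had 3.44 and 2.51. In neither gene did the organs overlap in either genotype. The differences between organs were 4.18 ± 0.27 for Pitx1 and 4.2 ± 0.36 for Six2 in the controls (adjusted p = 0.00032 and 0.00083), and 2.71 ± 0.25 and 2.04 ± 0.33 in the Eed KO (adjusted p = 0.0017 and 0.013).

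Nkx6-1, Emx2 and Sim2, developmental transcription factors, were low in the control stomach and higher in the Eed KO stomach. Nkx6-1 was at 3.13 and 3.54 CPM in the control stomach and had no counts in the control intestine, so it was at least 72.9-fold higher in the stomach. It was at 18.1 and 19.5 CPM in the Eed KO stomach, with 0.633 and 1.23 in the Eed KO intestine, and rose by 2.49 ± 0.27 (adjusted p = 0.004) in the stomach with loss of Eed. Emx2 was at 1.91 and 1.76 CPM in the control stomach, 11.5 and 17.2 in the Eed KO stomach, 0 in the control intestine, with 0.449 and 0.713 in the Eed KO intestine, with a stomach excess of at least 39.9-fold in the controls. Sim2 was at 3.01 and 2.5, 15.5 and 24.4, 0.0843 and 0.135, and 0.343 and 1.08 CPM in the same order, with organ differences of 4.64 ± 0.64 in the controls (adjusted p = 0.0057) and 4.81 ± 0.47 in the Eed KO (adjusted p = 0.0018). Each has 1 member, with enrichments between 2.63 and 3.58. In all 3 genes, the stomach stayed above the intestine in both genotypes.

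Nkx2-5, a homeodomain factor of the pylorus and the spleen primordium, differed between the control stomach libraries. It was at 32.1 and 6.4 CPM there, 12.8 and 16.6 in the Eed KO stomach, against 0.478 and 1.18 in the control intestine, with 3.06 and 4.42 in the Eed KO intestine. It was higher in the control stomach by 4.56 ± 0.82 (adjusted p = 0.017), and the Eed KO organs differed by 1.98 ± 0.69 (adjusted p = 0.16). Gata3, the nearest tested gene of the strong intergenic member on chromosome 2, followed the same libraries, at 13.0 and 2.88 CPM in the control stomach, 12.4 and 17.6 in the Eed KO stomach, against 0.253 and 0.774 in the control intestine, with 3.51 and 4.59 in the Eed KO intestine. Tlx1, a defining factor of the spleen primordium, was at 1.57 and 0.357 CPM in those control stomach libraries, 1.85 and 2.85 in the Eed KO stomach, with no counts in the control intestine. The summed level of 5 spleen markers ranged from 1000 to 1030 CPM in the control stomach and from 1010 to 1060 in the control intestine, most of it from genes that other mesenchyme also expresses, and the part of spleen cells in these levels was not tested.

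**Figure D5:**
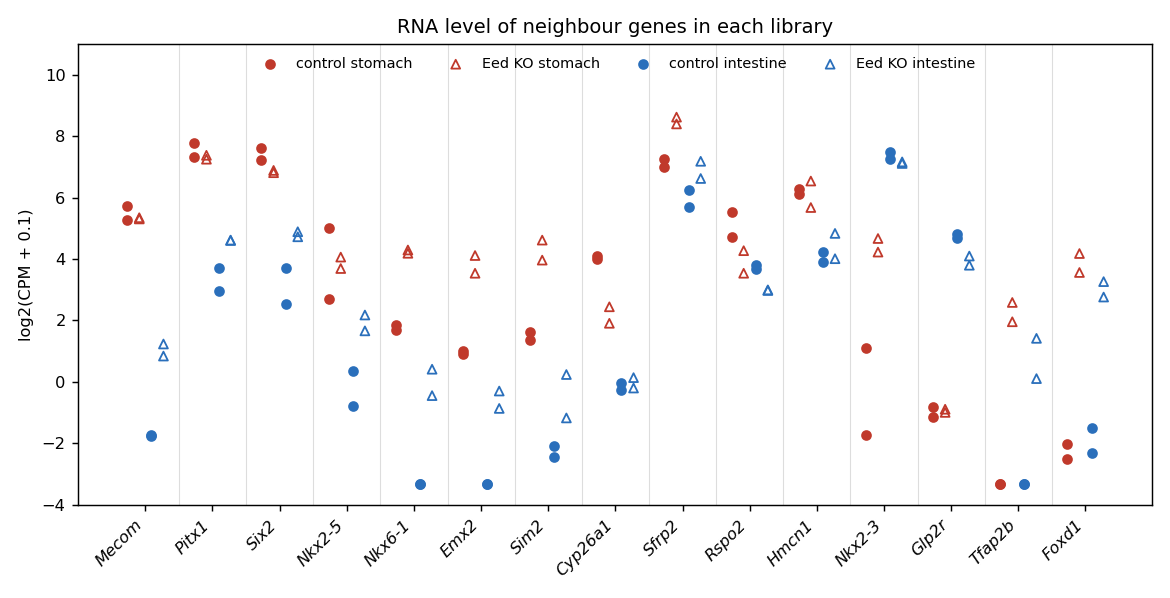
RNA level, as log2(CPM + 0.1), of 15 neighbour genes in each library, with 2 points for each group (filled circles control, open triangles Eed KO, red stomach, blue intestine). From Mecom to Hmcn1 the red points lie above the blue within each genotype, Nkx2-3 and Glp2r show the reverse, and Tfap2b and Foxd1 are at or near the bottom in the control libraries and higher in all 4 Eed KO libraries.

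Barx1, the best known stomach mesenchyme factor, is not a neighbour of any member. Of the 17 regions within 50 kb of its start, 10 were in all 4 lists and 2 were in both stomach lists and the Eed KO intestine list, and its nearest member lay 75728 bp downstream of the start. Barx1 RNA was at 627 and 557 CPM in the control stomach, 379 and 310 in the Eed KO stomach, against 0.534 and 1.48 in the control intestine, with 9.47 and 13.2 in the Eed KO intestine. Of the other well known regulators, the surroundings of Mecom, Pitx1 and Nkx6-1 had 10, 13 and 9 regions within 50 kb, of which 5, 8 and 4 were in all 4 lists and 1 each was a stomach-restricted kept region.

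The list of 16 stomach mesenchyme transcription factors held 4 neighbour genes (Pitx1, Six2, Nkx6-1 and Mecom), all higher in the stomach in both genotypes. Over the whole list, 8 of 16 were higher in the control stomach and none lower, and 11 were higher and 1 lower in the Eed KO stomach than in the Eed KO intestine. Of 7 pyloric factors, 5 were higher in the control stomach, and 3 were neighbour genes (Nkx2-5, Six2 and Nkx3-2, with Nkx3-2 at -0.57 and an adjusted p of 0.48). Of 12 tested intestinal mesenchyme factors, 10 were lower in the control stomach and 2 were neighbour genes (Nkx2-3 and Cdx1). These lists were drawn up with earlier results of the data known, so their counts are no independent evidence of direction.

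Signalling genes beside the regions were mixed. Cyp26a1, which degrades retinoic acid, was at 15.9 and 16.9 CPM in the control stomach, 5.34 and 3.65 in the Eed KO stomach, against 0.73 and 0.875 in the control intestine, with 1 and 0.77 in the Eed KO intestine. Its stomach excess was 4.35 ± 0.26 (adjusted p = 0.00026) in the controls and 2.33 ± 0.25 (adjusted p = 0.0029) in the Eed KO, and it fell by 1.87 ± 0.22 in the stomach with loss of Eed relative to the average gene (adjusted p = 0.0035), a direction that turns with scaling by spike-ins (0.4). Of 14 tested retinoic acid genes, 5 were higher and 2 lower in the control stomach, and 3 were neighbour genes. Aldh1a2, which makes retinoic acid, and Stra6, a retinol receptor, have 1 member each and differed by -0.48 (adjusted p = 0.025) and -0.15 (adjusted p = 0.9), short of the threshold of size or of p.

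Among Wnt genes, Sfrp2, a secreted Wnt antagonist, was at 127 and 151 CPM in the control stomach, 337 and 393 in the Eed KO stomach, against 51.3 and 75.3 in the control intestine, with 98.3 and 145 in the Eed KO intestine, and was higher in the stomach by 1.13 ± 0.24 (adjusted p = 0.029) and 1.59 ± 0.24 (adjusted p = 0.0097) in the 2 genotypes. Sfrp1, another antagonist, has 2 members and did not pass in any comparison, with organ differences of 0.01 and 0.12. Wnt2b, a mesenchymal Wnt ligand, was at 85.7 and 102 CPM in the control stomach and 32.9 and 47 in the control intestine (1.23 ± 0.25, adjusted p = 0.026), and at 68.3 and 99.3 against 39.5 and 52.8 in the Eed KO (0.86 ± 0.25, adjusted p = 0.092). Wnt4, Wnt5a and Wnt9a also have a member each and did not pass. Of 13 tested Wnt ligands, 4 were higher in the control stomach and none lower, and of 12 tested antagonists 2 were higher and 1 lower.

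Of 17 genes for BMP ligands and antagonists, 6 were neighbour genes. Bmp6, a BMP ligand, was at 17.7 and 16.2 CPM in the control stomach and 7.5 and 7.03 in the control intestine (1.22 ± 0.18, adjusted p = 0.0082), and at 7.43 and 8.09 against 3.17 and 4.54 in the Eed KO (1.01 ± 0.19, adjusted p = 0.023). Chrdl1, a BMP antagonist, was higher in the stomach by 1.53 ± 0.16 and 1.18 ± 0.16 in the 2 genotypes (adjusted p = 0.0016 and 0.0069). Bmp3, an antagonistic ligand, was lower in the control stomach, at 2.99 and 6.09 CPM against 39.1 and 43.7 (-3.18 ± 0.45, adjusted p = 0.0066). Fst, an inhibitor of activins and BMPs, was at 259 and 294 CPM in the control stomach and 94.1 and 70.6 in the Eed KO stomach, a fall of 1.75 ± 0.31 (adjusted p = 0.017), and its control organs differed by 1.12 ± 0.31 (adjusted p = 0.082). The falls of Bmp6, Chrdl1 and Fst in the Eed KO stomach turn to values of 1.29, 1.16 and 0.55 with scaling by spike-ins. Bmp2 and Fstl1 did not pass in any comparison. Of 9 tested genes of the FGF family, 4 were higher in the control stomach, but none was a neighbour gene. Of 13 Hedgehog pathway and forkhead genes, none passed the threshold between the control organs, the neighbour gene Cdon among them. Foxf2 of that list, not a neighbour gene, missed it by size, at -0.87 ± 0.12 (edgeR, adjusted p = 0.0058).

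Of the 10 genes with the most members (ties taken by control stomach level), 2 followed the organ of the peaks in their RNA. Hmcn1, which encodes the matrix protein hemicentin, had 5 members among the 16 regions assigned to it, 4 of them in introns. Its RNA was at 68.5 and 76.9 CPM in the control stomach, 51 and 92.8 in the Eed KO stomach, against 14.8 and 18.6 in the control intestine, with 16 and 28.4 in the Eed KO intestine, with organ differences of 2.12 ± 0.35 (adjusted p = 0.011) and 1.69 ± 0.34 (adjusted p = 0.029). Rspo2, a secreted amplifier of Wnt signals, had 4 members among 11 regions, 2 in its introns and 2 upstream, and was at 26.3 and 46.5 CPM, 11.5 and 19.2, 13.9 and 12.8, and 7.76 and 7.87 in the same groups. It was higher in the control stomach by 1.44 ± 0.31 (adjusted p = 0.034) and differed by 0.97 ± 0.31 in the Eed KO (adjusted p = 0.13). The other 8 of these 10 genes (Trabd2b and Gm6807 with 4 members, and Isoc1, Lamc1, Ugp2, Cdk1, Srpk2 and Ubac1 with 3) did not pass in either organ comparison, with control differences between -0.79 and 0.2.

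Members also gathered in wider windows. Of 3133 windows of 500 kb with any member, the median held 2 and 8 windows held 8 or 9. In the windows where most members were nearest to Gfra1 (a GDNF receptor), Jazf1, Mecom and Hmcn1, the counts were 9, 9, 8 and 8, and no region of the intestinal mirror was present. A window by Wnt5a held 8 members and 4 mirror regions, and windows by Uaca and 5730508B09Rik held 8 members each. Gfra1 was at 478 and 387 CPM in the control stomach, 234 and 161 in the control intestine, 245 and 234 in the Eed KO stomach, with 124 and 157 in the Eed KO intestine, with organ differences of 1.13 ± 0.2 (adjusted p = 0.017) and 0.77 ± 0.2 (adjusted p = 0.071). Wnt5a and Jazf1 differed by -0.41 ± 0.16 and 0.04 ± 0.17 in the controls (adjusted p = 0.23 and 0.97). These windows were chosen for their density after the regions were counted.

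The other neighbour genes with the largest stomach excess in the controls have diverse roles. Ptgdr, a prostaglandin D2 receptor, was at 4.52 and 8.36 CPM in the control stomach and had no counts in the control intestine, at least 143-fold higher, and was at 1.74 and 1.37 CPM in the Eed KO stomach against 0 and 0.143. Kcnh5, a potassium channel, was at 1.57 and 1.15 CPM against no counts, at least 29.2-fold higher. Cdo1, a cysteine dioxygenase, was at 33.7 and 42.4 CPM against 1.26 and 1.78 in the controls and 42.3 and 40.5 against 2.19 and 2.45 in the Eed KO, with differences of 4.65 ± 0.2 and 4.16 ± 0.19 (adjusted p = 5.9e-05 and 0.00018). Dcx, a microtubule protein of migrating neurons, was at 41.7 and 28 against 1.29 and 1.58 and at 27.3 and 23.6 against 1.45 and 0.856 CPM, and Ecel1, a membrane peptidase, at 23.9 and 9.94 against 0.112 and 0.606 and at 10.7 and 11.4 against 0.237 and 0.628 CPM. For Cdo1, Dcx and Ecel1 the excess passed the threshold in both genotypes, and the Eed KO stomach did not differ from the control stomach by the threshold. Sez6, a neuronal membrane protein, fell from 5.83 and 8.46 CPM to 3.03 and 3.87 in the stomach and rose from 0.225 and 0.236 to 1.24 and 1.23 in the intestine, and the first of these directions turns with scaling by spike-ins (1.38).

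Some members lay beside genes that were higher in the intestine. Nkx2-3, a homeodomain factor of the intestinal mesenchyme, was at 153 and 180 CPM in the control intestine, with 138 and 143 in the Eed KO intestine, at 2.06 and 0.204 in the control stomach and at 18.6 and 25.3 in the Eed KO stomach. A member of 951 bp lay 2495 bp from its start, in an exon, with enrichments of 3 and 2.26, so a stomach-restricted peak stood beside an intestinal gene, among 20 regions within 50 kb of the start of which 13 were in all lists. In the stomach, Nkx2-3 rose by 4.32 ± 0.63 with loss of Eed (adjusted p = 0.0081). Glp2r, the receptor of the intestinal hormone GLP-2, was at 0.464 and 0.357 CPM in the control stomach against 25.6 and 28.2 in the control intestine, a difference of -6.03 ± 0.21 (adjusted p = 2.5e-05), and differed by -5.18 ± 0.21 in the Eed KO (adjusted p = 0.00018). Sgpp2 (a sphingosine phosphatase), Thbs4 (a matrix thrombospondin) and Esrrb (an orphan nuclear receptor) were also lower in the stomach in both genotypes, with -4.06 ± 0.24, -4.03 ± 0.32 and -3.53 ± 0.33 in the controls.

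Of the 5 neighbour genes that rose most in the Eed KO stomach, 3 encode transcription factors. Tfap2b, a transcription factor with 3 members, had no counts in the control libraries of either organ and was at 3.78 and 5.9 CPM in the Eed KO stomach, at least 119-fold higher, and at 0.976 and 2.57 in the Eed KO intestine. Foxd1, a forkhead factor, was at 0.145 and 0.0765 CPM in the control stomach and 11.7 and 18 in the Eed KO stomach (7.05 ± 0.46, adjusted p = 0.0004), and rose by 5.44 ± 0.44 in the intestine (adjusted p = 0.0021). Ebf3, a helix-loop-helix factor with 2 members, was at 5.83 and 4.21 CPM in the control stomach and 110 and 133 in the Eed KO stomach (4.6 ± 0.25, adjusted p = 0.00017). Cdkn2b, a cell cycle inhibitor, rose by 4.89 ± 0.69 (adjusted p = 0.0072) and Tmem30b, a flippase subunit, by 4.89 ± 0.26 (adjusted p = 0.00016). All 5 also rose in the Eed KO intestine. The members beside Tfap2b had enrichments of 2.41, 2.87 and 2.58 in the control stomach, where the gene had no counts, and 2.64, 3.24 and 2.93 in the Eed KO stomach.

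Those that fell most in the Eed KO stomach were 3 provisional gene models, the retinoic acid enzyme Cyp26a1 and Col28a1, a collagen gene. Gm4737 went from 14.7 and 21.5 CPM to 0.107 and 0.11 (-7.34 ± 0.45, adjusted p = 0.00028), Gm5611 from 3.39 and 2.88 to 0.402 and 0.219 (-3.32 ± 0.36, adjusted p = 0.0024), and Gm12751 from 1.25 and 3.16 to 0.0268 and 0.0274, which is 2 counts in the Eed KO stomach. All 3 also fell in the intestine. Reads of such models can be shared with similar genes elsewhere, which can make their counts uncertain, and the part of this in the falls was not tested. Col28a1 fell from 2.52 and 4.26 to 0.617 and 0.357 CPM (-2.79 ± 0.6, adjusted p = 0.033).

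Markers of other cell types differed between the groups compared. Wt1, a mesothelial and splenic gene with 1 member, was higher in the stomach by 1.04 ± 0.19 in the controls (adjusted p = 0.018) and 1.23 ± 0.19 in the Eed KO (adjusted p = 0.012), and of 5 mesothelial markers it was the only one called in the controls, with summed levels of 537 to 572 CPM in the control stomach and 324 to 504 in the control intestine. Epcam, an epithelial gene with 1 member, was at a mean of 14.3 CPM in the control stomach and 4.03 in the control intestine (1.83 ± 0.2, adjusted p = 0.0019), while 8 epithelial markers summed to 49.4 to 55.7 and 34.3 to 48.1 CPM. Tie1 and Emcn, endothelial genes with 1 member each, rose by 2.17 ± 0.49 and 3.5 ± 0.57 in the Eed KO stomach (adjusted p = 0.038 and 0.012), and 6 endothelial markers, 4 of which rose, summed to 14.9 to 15.4 CPM in the control stomach and 25.4 to 46.1 in the Eed KO stomach. Actg2, a smooth muscle actin with 1 member, was lower in the Eed KO stomach than in the Eed KO intestine (-1.31 ± 0.28, adjusted p = 0.034), where 4 of 9 smooth muscle markers were lower. Of 7 pancreatic markers, Ptf1a and Ins1 had no counts in any library, and the list summed to 4.28 to 4.41 CPM in the control stomach, 1.24 to 2.19 in the control intestine, 19.3 to 20.4 in the Eed KO stomach and 1.42 to 2.68 in the Eed KO intestine. Of this list, Nkx6-1, Gcg and Cpa1 have 1 member each, and Nkx6-1 was the only one called between the organs. Nkx6-1 alone was at 3.13 and 3.54 CPM in the control stomach and 18.1 and 19.5 in the Eed KO stomach. It thus made up most of the stomach sums, which say little about the other pancreatic markers. Neural crest markers summed to 55.3 to 66.7 CPM in the control stomach and 195 to 208 in the control intestine, leukocyte markers to 3.14 CPM at most and erythroid markers to 18.7 at most. The part of these cell types in the neighbour gene counts was not tested.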

How the data were processed

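The members and gene lists were chosen with earlier results of these data known. ATAC-seq peaks were deposited as 4 lists, in which the authors aligned reads to GRCm38/mm10 with BWA, pooled the replicates and called broad peaks with MACS2 2.1.2. The deposited columns used are the fold enrichment over the MACS2 background (a ratio) and the -log10 q, which the authors' lists hold down to about 1, below the 2 of their stated q cut-off of 0.01. Peak lists carry no read counts, so their depth is unknown and no interval was computed. RNA counts were deposited by the authors as raw whole-number counts per gene symbol from STAR and featureCounts on GENCODE vM4, with 99 spike-in transcripts. The 4 adult libraries were not analysed here, apart from the gene models in a file of them, which gave gene starts.

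Peaks were merged with bedtools 2.31.1. Gene counts of 8 libraries were filtered with filterByExpr, scaled by TMM and fitted as 4 group means with the quasi-likelihood test of edgeR, with Benjamini-Hochberg adjustment over 16218 genes. Standard errors are the log2 difference divided by the root of F. The study describes its 2 libraries per group as biological replicates, and the labels do not tie them to embryos or litters. Folds against a group without counts use a floor of 3 counts for the group. In simulated data with 200 changed genes on these means, 86.5% were recovered for the control organs with 12 false calls. The changed genes were drawn only from those above a floor of counts, so this recovery does not cover genes with few counts. The 18 strings were searched on both strands of the central 300 bases in GRCm38, and sequences are from RefSeq's GRCm38.p6 assembly. Neighbour genes are the nearest tested starts within 50000 bp of a region's centre. Named genes were the 10 with most members, the 10 largest and 5 smallest control organ differences and 5 in each direction for the Eed KO stomach (called, mean of at least 1 CPM, no overlap), called genes of the lists that were neighbours, and Eed. Other names (Barx1, Gata3, Tlx1, Gfra1 and list members that did not pass) are given for context. Alternatives were stricter peaks, other merging, other windows around starts, DESeq2 1.42.0, no filter on low counts, spike-in scaling, an RUVg factor, a replicate block and leaving out each library.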

Additional observations from a re-analysis of the deposited data

Results flagged for a closer look

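Among the neighbour genes described, 5 had an organ difference that changed with genotype by the interaction term of edgeR (adjusted p under 0.2, log2 difference over 1). Mecom, Sez6, Nkx2-3 and Sgpp2 were named for large organ differences in the controls, and Cyp26a1 for its fall from the control stomach. The interaction uses the same control libraries, so a larger difference in the control was favoured among these genes. The stomach excess of Mecom was larger in the control than in the Eed KO by 3.48 ± 0.36 (log2, SE, adjusted p = 0.03), that of Sez6 by 3.46 ± 0.42 (adjusted p = 0.048) and that of Cyp26a1 by 2.02 ± 0.36 (adjusted p = 0.14). The intestinal excess of Nkx2-3 was larger in the control, with an interaction of -4.57 ± 0.79 (adjusted p = 0.12), and so was that of Sgpp2, with -2.07 ± 0.31 (adjusted p = 0.073). In Mecom and Sez6 the Eed KO intestine was above the control intestine in both pairs of libraries, in Cyp26a1 the Eed KO stomach was below the control stomach, and in Nkx2-3 the Eed KO stomach was above the control stomach. The part of other cell types in these changes was not tested.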

How the results depend on the processing

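The regions depend on the peak cut-off, with 2524 regions meeting the rule among peaks whose -log10 q reached 5, and 10.1% lay within 5000 bp of a gene start. Shares over all tested genes in the same fit follow in brackets. With scaling by spike-ins, the shares of neighbour genes called were 1.3% (0.524%) higher and 0.4% (0.432%) lower in the control stomach than in the control intestine, 1.15% (0.586%) and 0.15% (0.123%) between the Eed KO organs, 94.9% (95.1%) and 0.25% (0.117%) higher and lower in the Eed KO stomach than in the control, 84.5% (84.3%) higher in the Eed KO intestine, and 0.0% (0.0%) and 0.05% (0.123%) for the change of the organ difference. The falls in the Eed KO stomach turned under it for Bmp6 (1.29), Chrdl1 (1.16), Cyp26a1 (0.40), Eed (0.14), Fst (0.55) and Sez6 (1.38), and for Sgpp2 in the Eed KO intestine (0.46). With an RUVg factor, 1.55% (1.59%) were higher in the Eed KO stomach, 1.4% (1.01%) higher and 0.55% (0.364%) lower in the Eed KO intestine, and 1.05% (0.493%) and 1.0% (0.506%) changed their organ difference.

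The labels do not say that replicate numbers pair the libraries. Deviations of same-numbered libraries correlated at 0.265 between the control organs, 0.628 between the Eed KO organs and 0.047 to 0.151 between genotypes. With a replicate block, 2.8% (2.2%) were lower in the Eed KO stomach than in the Eed KO intestine, 0.5% (0.345%) lower in the Eed KO intestine than in the control, and 1.55% (1.05%) and 1.9% (1.1%) changed their organ difference. The shares higher in the stomach were then 8.95% (4.63%) in the controls and 9.35% (4.77%) in the Eed KO.

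The share lower in the Eed KO intestine was 0.595% (0.228%) for those stricter peaks, 0.5% (0.351%) with DESeq2 and 0.377% (0.26%) with no filter on low counts. The shares with a changed organ difference were 0.297% (0.191%) higher in the control for the stricter peaks, 1.05% (0.61%) and 1.25% (0.666%) with DESeq2, 0.792% (0.461% and 0.473%) in each direction with no filter, and 0.451% (0.271%) lower with the nearest of all annotated genes.

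Leaving out each library in turn gave 2.89 to 6.73% higher and 1.08 to 2.11% lower in the control stomach, 2.46 to 5.39% and 0.539 to 1.67% in the Eed KO stomach against the Eed KO intestine, 1.96 to 6.29% and 0.441 to 1.23% in the Eed KO stomach against the control, 0.441 to 2.65% and 0.0979 to 0.246% in the Eed KO intestine, and 0.098 to 0.59% and 0.0 to 0.735% for the organ difference by genotype. A lone library was assumed to vary like the other groups. Over 102 values of 50 genes and 1326 alternatives, 1139 kept direction and side of the threshold, 180 lost the call and 7 turned. The cause was not tested. Peak lists without replicates or depth give no error for a region.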
